A study of Mus musculus with 34 samples.

Results

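Foxi1, Ascl3, Cftr, Moxd1 and 3 subunits of the vacuolar proton pump, Atp6v1c2, Atp6v0d2 and Atp6v1g3, are listed as genes of airway ionocytes. Whether they mark ionocytes alone in brushed tissue was not tested. These 7 listed genes were taken by symbol from a count table of 24223 gene rows. The RNA came from epithelium brushed from the trachea of mice lacking Gprc5a, an epithelial receptor gene. All 28 of these mice were Gprc5a-/-, the baseline animals included, and each gave 1 library. Baseline mice were sampled before any exposure (n = 6). The others were given NNK, a nitrosamine of tobacco smoke, in 3 doses of 50 mg/kg each week over 8 weeks, and were sampled at the end of exposure (t0, n = 6) or 2 months (t2, n = 5), 4 months (t4, n = 6) or 6 months later (t6, n = 5). The labels give an age of 6 to 8 weeks for every group. Age and time since exposure cannot be told apart, because no unexposed mice of the later ages were analysed here. A further 6 libraries came from wild-type mice before exposure.

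Ionocytes are rare epithelial cells of the conducting airway, named for their likeness to the salt-regulating cells of fish gills and frog skin. The forkhead transcription factor FOXI1 is needed to make them, and in mouse and human airways they carry more CFTR RNA per cell than other cell types. They also carry subunits of the vacuolar proton pump, whose cytosolic V1 sector splits ATP and whose membrane V0 sector moves protons. Several pump subunits exist as a widely used form and a form restricted to acid-secreting or bone-resorbing cells, among them C1 and C2, B1 and B2, d1 and d2.

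Knockout libraries held 15.6 M to 37.6 M counts and wild-type libraries 10.8 M to 24.0 M. Library 339 of t2 stood apart, with 14283 genes above 0, against 16686 to 18868 in the others. Haemoglobin genes took 22.8% of the counts in library 357 of t0, 25.5% in library 371 of t4 and 15.3% in library 349 of t6. These 4 libraries and library 365 of t6 were left out together in one alternative. Library 365, the deepest at 37.6 M counts, had 18076 genes above 0 and 1.01% haemoglobin. Neither trait set it apart, and its choice followed no stated rule. Levels below are counts-per-million values (CPM) after TMM scaling, and a gene was tested if it had at least 1 CPM in at least 5 libraries, which 14847 genes did. Of the 7 genes, 6 were tested, and Atp6v1g3 was too low.

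The 3 pump subunits took 3 different courses at the end of exposure. Atp6v1c2 fell about 7-fold, Atp6v0d2 rose 31.8-fold, and Atp6v1g3 was barely detected in any group. Among the ionocyte genes that are no pump subunits, Cftr rose 2.17-fold, while Foxi1, Ascl3 and Moxd1 did not pass the test in any comparison. Of the 6 genes tested, 2 rose and 1 fell at t0 against baseline by edgeR's quasi-likelihood test with Benjamini-Hochberg adjustment, where 45.5% of all genes tested passed (23.3% higher and 22.3% lower). At t2 against baseline 1 of the 6 passed, where 19.9% of all genes did. At t4 against baseline it was again 1 of the 6, against 19.6% of all genes. At t6 against baseline 0 of the 6 passed, against 8.83% of all genes. That count of 0 includes Atp6v0d2, the 1 gene of the 6 with an unadjusted p under 0.05 there, and limma and DESeq2 also called 0 of the 6. An F test over the 5 groups, which 56.8% of all genes passed, called Atp6v1c2, Atp6v0d2 and Cftr (adjusted p = 8.3e-08, 6.28e-07 and 0.0426) and did not call Foxi1, Ascl3 or Moxd1 (0.422, 0.756 and 0.826).

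**Figure D1:**
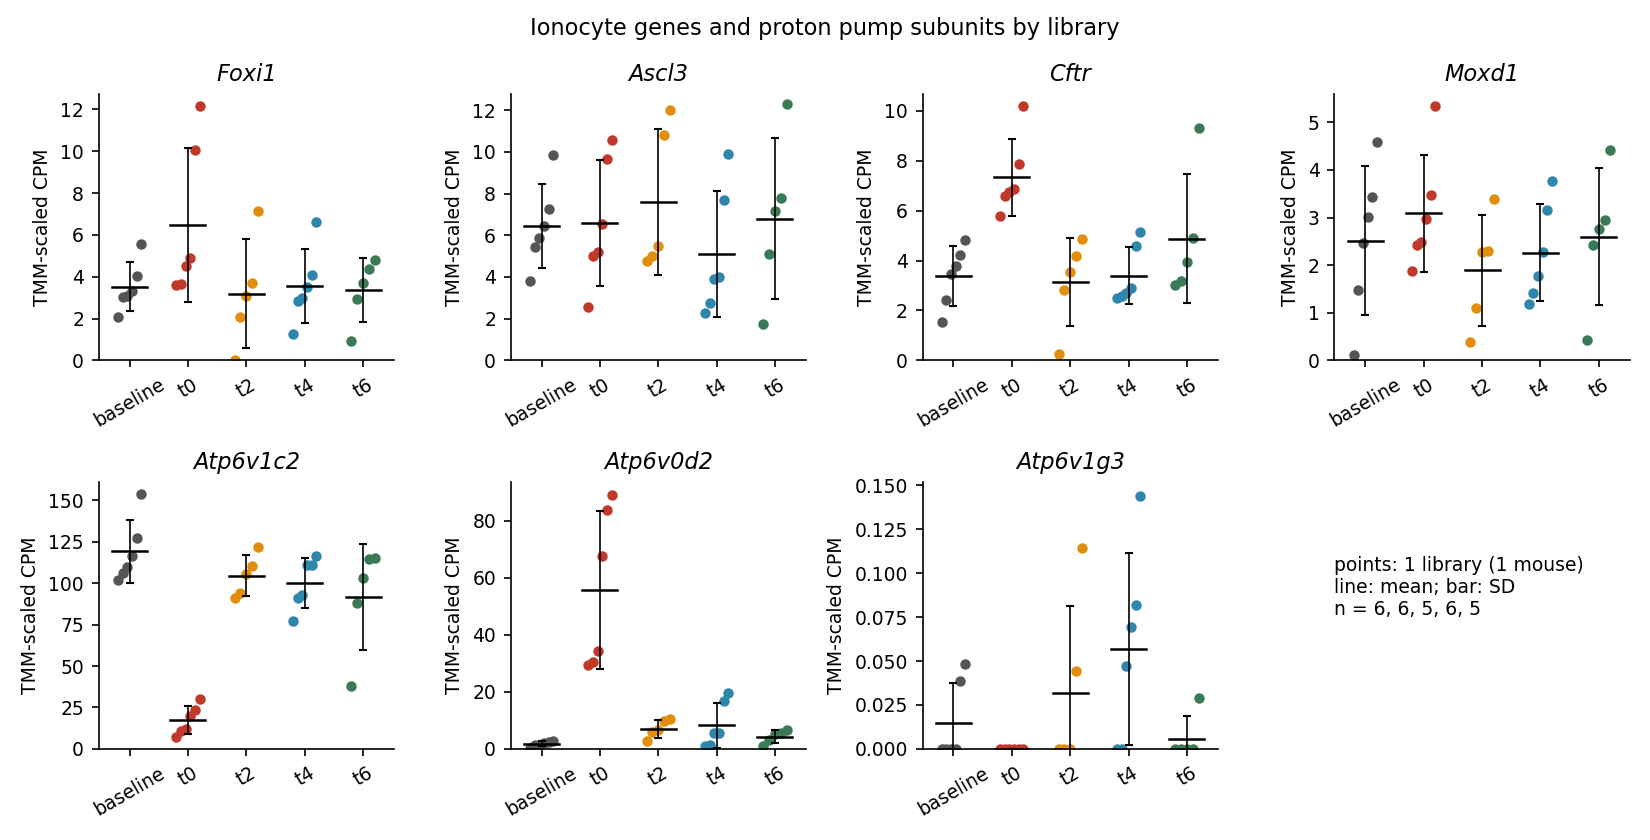
TMM-scaled CPM (linear y axes, each from 0) of the 7 genes in 5 groups of Gprc5a-/- mice, with 1 point per library, the mean as a line and the SD as a bar. The 6 t0 points of Atp6v1c2 lie below all other libraries, those of Atp6v0d2 lie above all others, and most Atp6v1g3 points are at 0.

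Foxi1 encodes the forkhead factor that specifies ionocytes and lies at chr11:34204338-34208089 on the minus strand (GENCODE M21, GRCm38). It measured 3.59, 4.71 and 12.2 CPM at t0 (lowest, median and highest library), against 2.07, 3.21 and 5.58 CPM at baseline. Libraries 357 and 367, at 12.2 and 10.1 CPM, were the high ones at t0, and the other 4 lay inside the baseline range. The difference was 0.88 ± 0.59 on the log2 scale (SE, 95% interval -0.33 to 2.09, adjusted p = 0.229). Library 357 is 1 of the 3 rich in haemoglobin. In the 5 libraries of t2, Foxi1 measured 0, 2.05, 3.06, 3.68 and 7.13 CPM, with library 339 at 0 counts. At t4 it measured 1.27, 3.24 and 6.62 CPM (lowest, median, highest). At t6 it measured 0.905, 2.96, 3.71, 4.38 and 4.78 CPM. Every later group overlapped baseline, and the fitted differences from baseline were -0.15, 0.00 and -0.07 on the log2 scale (adjusted p = 0.894, 0.999 and 0.964 at t2, t4 and t6).

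Ascl3, a basic helix-loop-helix factor found in airway ionocytes, lies at chr7:109727465-109731726 on the minus strand. It measured 2.55, 5.86 and 10.6 CPM at t0 (lowest, median, highest), against 3.80, 6.17 and 9.85 CPM at baseline. The groups overlapped almost wholly, and the log2 difference was 0.03 ± 0.41 (95% interval -0.80 to 0.86, adjusted p = 0.961). At t2 it measured 4.78, 4.98, 5.47, 10.8 and 12.0 CPM, at t4 2.26, 3.95 and 9.88 CPM (lowest, median, highest), and at t6 1.74, 5.08, 7.14, 7.78 and 12.3 CPM. Library 339, in which Foxi1 was at 0, had the highest Ascl3 of t2, with 371 counts. Differences from baseline at t2, t4 and t6 were 0.24, -0.35 and 0.08 on the log2 scale, with adjusted p of 0.728, 0.583 and 0.942.

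The 250 bases before the transcript start, from RefSeq on GRCm38.p6, are shown for the genes of both factors and for Atp6v1c2, the pump gene that fell, since forkhead proteins such as FOXI1 bind sequences with the core TAAACA. Capitals mark that core or its reverse complement, TGTTTA.
Ascl3 (chr7:109731733-109731982, minus strand): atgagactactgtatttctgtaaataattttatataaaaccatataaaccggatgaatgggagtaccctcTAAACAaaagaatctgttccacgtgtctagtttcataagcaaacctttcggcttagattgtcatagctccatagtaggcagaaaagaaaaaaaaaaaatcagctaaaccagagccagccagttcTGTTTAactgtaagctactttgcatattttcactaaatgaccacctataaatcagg
Foxi1 (chr11:34208090-34208339, minus strand): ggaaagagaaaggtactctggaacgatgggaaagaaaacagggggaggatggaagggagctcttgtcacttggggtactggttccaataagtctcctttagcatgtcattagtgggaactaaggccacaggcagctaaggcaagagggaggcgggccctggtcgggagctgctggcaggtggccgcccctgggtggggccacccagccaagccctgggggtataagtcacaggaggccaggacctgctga
Atp6v1c2 (chr12:17324731-17324980, minus strand): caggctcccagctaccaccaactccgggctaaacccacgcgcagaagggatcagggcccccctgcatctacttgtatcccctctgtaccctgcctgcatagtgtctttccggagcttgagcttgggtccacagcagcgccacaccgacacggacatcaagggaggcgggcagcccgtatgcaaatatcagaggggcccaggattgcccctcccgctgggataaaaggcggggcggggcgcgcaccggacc
The RefSeq start of Atp6v1c2 used here lies inside the span that GENCODE gives the gene. Of the 7 genes, 6 had an entry in the promoter table, and Atp6v0d2 had none. Ascl3 alone of these 6 held the core, with 2 matches that begin 180 and 56 bases before the start. Across the table, 3952 of 32851 promoters (12.0%) held at least 1 match on either strand. A match is a stretch of letters and was not tested as a binding site.

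Cftr, the chloride and bicarbonate channel mutated in cystic fibrosis, lies at chr6:18170687-18322768 on the plus strand. It measured 5.79, 6.81 and 10.2 CPM at t0 (lowest, median, highest), against 1.55, 3.63 and 4.82 CPM at baseline. All 6 t0 libraries were above all 6 baseline libraries, which 13.1% of all genes tested also showed in the higher direction. The rise was 1.12 ± 0.41 on the log2 scale (adjusted p = 0.0272), a fold of 2.17 with a 95% interval of 1.21 to 3.89. The call was lost without baseline library 355 (adjusted p = 0.065), without baseline library 356 (0.0588) or without t0 library 375 (0.0609), and it held under the 12 alternative settings, with adjusted p between 0.00336 and 0.0361. An antisense gene, Gm15592, shares 129 exon bases with Cftr, and use of strand in the counting is not given in the sources used here.

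Later Cftr levels lay near baseline. At t2 it measured 0.259, 2.83, 3.54, 4.20 and 4.87 CPM, with library 339 the lowest at 8 counts. At t4 it measured 2.49, 2.79 and 5.14 CPM (lowest, median, highest). At t6 it measured 3.03, 3.18, 3.93, 4.90 and 9.31 CPM, and library 368 alone exceeded the baseline range by more than 1 CPM. Cftr fell by 1.22 at t2 against t0 and by 1.11 at t4 against t0 on the log2 scale (adjusted p = 0.0343 and 0.0374). The t2 call was lost without t0 library 374 or 375 or t2 library 360 (adjusted p = 0.0522, 0.0712 and 0.0635), and the t4 call without t0 library 374 or 375 or t4 library 336, 340, 348 or 377 (adjusted p from 0.0576 to 0.0828). At t6 against t0 the difference was -0.59 and did not pass (adjusted p = 0.289).

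In brushed tissue, fewer cells of a type and less RNA per cell cannot be told apart. Markers of other epithelial cell types also moved at t0, where 23.3% of all genes tested rose and 22.3% fell. Of 8 basal cell markers 6 rose, with a summed level of 4509 to 8804 CPM at t0, against 941.9 to 2538 CPM at baseline. Of 8 submucosal gland markers tested 4 rose, with a summed level of 9065 to 17770 CPM at t0, against 5429 to 15500 CPM at baseline. Of 8 squamous epithelium markers 6 rose, with a summed level of 1757 to 4755 CPM at t0, against 82.1 to 303.4 CPM at baseline. All 7 club cell markers and 6 of 7 ciliated cell markers fell. Of 6 neuroendocrine cell markers 5 rose and 0 fell, and of 8 tuft cell markers 2 rose and 5 fell. The part of these cell types in the Cftr difference was not tested.

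Moxd1 encodes a monooxygenase related to dopamine beta-hydroxylase and lies at chr10:24223517-24302790 on the plus strand. It measured 1.87, 2.73 and 5.34 CPM at t0 (lowest, median, highest), against 0.11, 2.74 and 4.58 CPM at baseline, where library 344 was far below the rest with 3 counts. The log2 difference was 0.30 ± 0.55 (95% interval -0.83 to 1.43, adjusted p = 0.683). At t2 Moxd1 measured 0.389, 1.11, 2.28, 2.31 and 3.38 CPM. At t4 it measured 1.18, 2.03 and 3.76 CPM (lowest, median, highest), and at t6 0.434, 2.43, 2.76, 2.95 and 4.42 CPM. All groups overlapped, and adjusted p against baseline was 0.66, 0.875 and 0.972 in these groups. Of its relatives, Pam, a peptide-amidating enzyme, was the 1 of 3 tested, and it fell at t0 by 1.02 (SE 0.11) on the log2 scale (adjusted p = 7.59e-08).

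**Figure D2:**
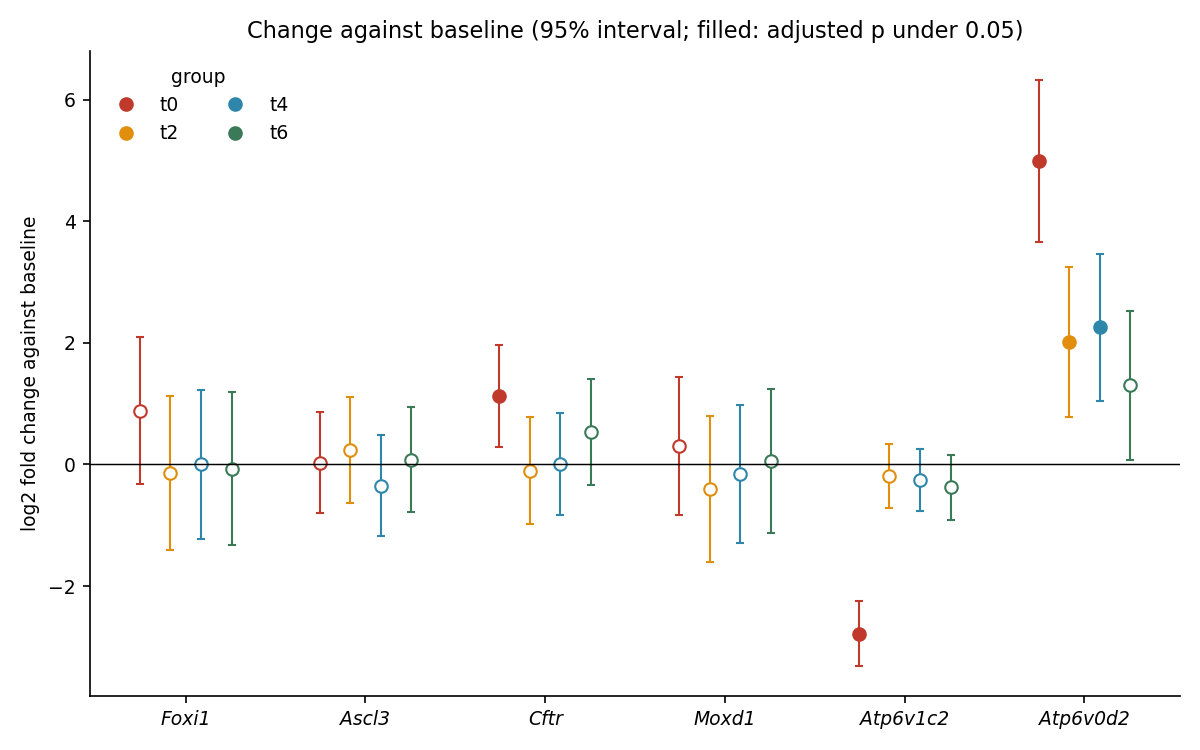
Log2 fold change (y axis) of the 6 tested genes at t0, t2, t4 and t6 against baseline, with 95% intervals from edgeR. Filled points passed an adjusted p of 0.05: Cftr and Atp6v1c2 at t0, and Atp6v0d2 at t0, t2 and t4.

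Atp6v1c2 encodes the C2 form of the V1 subunit that joins the pump's stalk to the membrane sector, and lies at chr12:17284721-17329359 on the minus strand. It measured 7.47, 16.0 and 29.9 CPM at t0 (lowest, median, highest), against 101.7, 113 and 153.7 CPM at baseline. Every t0 library was below every baseline library, as for 12.7% of all genes tested in the lower direction. The log2 difference was -2.78 ± 0.26 (adjusted p = 7.05e-09), which left 0.145 of the baseline level (95% interval 0.0998 to 0.212). Exons of Pdia6 on the opposite strand share 50 bases with it.

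The level was back in or near the baseline range in later groups. At t2 Atp6v1c2 measured 90.9, 94.1, 105, 110 and 122 CPM, and at t4 77.2, 102 and 117 CPM (lowest, median, highest). At t6 it measured 37.8, 87.8, 103, 114 and 115 CPM, with library 368 well under the other 4. Differences from baseline were -0.19, -0.25 and -0.38 on the log2 scale and did not pass (adjusted p = 0.643, 0.501 and 0.412). The 95% interval at t6 reached from -0.91 to 0.15. Against t0, the level rose by 2.59 at t2, 2.53 at t4 and 2.4 at t6 (adjusted p = 2.89e-07, 7.26e-08 and 2.63e-07), where 29.9%, 33.4% and 38.7% of all genes tested passed in either direction. Of the 6 tested genes, 3 passed at t2 and at t4 against t0 and 2 at t6 against t0, the comparisons sharing the t0 libraries.

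At t0, markers of club cells, the secretory cells of the airway, moved in the same direction as Atp6v1c2, as did most ciliated cell markers. Among all genes tested, 22.3% fell and 23.3% rose at t0. All 7 club cell markers fell at t0 (median log2 change -3.34), with a summed level of 29380 to 44430 CPM at t0, against 173100 to 245800 CPM at baseline. Of 7 ciliated cell markers 6 fell and 1 rose, with a summed level of 259.6 to 1085 CPM at t0, against 1499 to 2119 CPM at baseline. At t2, t4 and t6 the club cell sum was 87860 to 168900, 71510 to 191600 and 89630 to 171100 CPM. Against baseline, 4, 5 and 4 of the 7 club cell markers were still lower in these groups, and 0 were higher. Of the 7 ciliated cell markers 0 were lower there, and 1, 1 and 0 were higher. The ciliated cell sum was 1220 to 2280, 1726 to 2507 and 1475 to 2109 CPM. Over all genes tested, 19.9%, 19.6% and 8.83% were called in these comparisons in either direction. The part of these cell types in the Atp6v1c2 fall was not tested.

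Atp6v0d2 encodes the d2 form of the V0 subunit that links the membrane sector to the central stalk, known from osteoclasts and macrophages as well as kidney, and lies at chr4:19876841-19922605 on the minus strand. It measured 29.6, 51.1 and 89.2 CPM at t0 (lowest, median, highest), against 0.40, 1.77 and 2.80 CPM at baseline. The lowest t0 library was about 10-fold above the highest baseline library. Both groups lay apart in the higher direction for 13.1% of all genes tested. The log2 difference was 4.99 ± 0.65 (adjusted p = 9.43e-07), a 31.8-fold rise with a 95% interval of 12.7 to 80. At t2 Atp6v0d2 measured 2.62, 5.76, 6.73, 9.70 and 10.7 CPM, 4 libraries being above the baseline range. The rise against baseline was 2.02 ± 0.60 on the log2 scale (adjusted p = 0.0197). At t4 it measured 1.14, 5.44 and 19.7 CPM (lowest, median, highest), with libraries 336 and 371 inside the baseline range and libraries 348 and 377 above 16 CPM. The rise was 2.26 ± 0.59 (adjusted p = 0.00861). At t6 it measured 0.924, 3.11, 5.21, 5.69 and 6.62 CPM, and the difference of 1.3 ± 0.60 did not pass (adjusted p = 0.188). Against t0, Atp6v0d2 fell by 2.98 at t2, 2.74 at t4 and 3.70 at t6 on the log2 scale (adjusted p = 0.000623, 0.000499 and 6.27e-05).

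Of 14 macrophage markers 12 rose at t0, among them Cd68 and Ctss, and 1, Lyz2, fell, with a median log2 change of 3.21. Of all genes tested, 23.3% rose and 22.3% fell at t0. Lyz2 dominated the summed level of the list, which was 3171 to 8179 CPM at t0, against 3633 to 8551 CPM at baseline. Without Lyz2, a sum chosen after its values were seen, it was 1244 to 2769 CPM at t0, against 425.4 to 740.3 CPM at baseline. At t2, t4 and t6 against baseline, 2, 5 and 1 of the 14 rose and 0 fell, where 19.9%, 19.6% and 8.83% of all genes tested were called. Of 7 osteoclast-like markers 4 were tested, and 2 rose at t0, Acp5 and Ctsk, by 2.38 and 2.4 on the log2 scale (adjusted p = 6.45e-09 and 0.00122). Dcstamp and Mmp9 differed by 0.91 and 0.42 and did not pass (adjusted p = 0.461 and 0.726). Of the 3 too low to test, Ocstamp averaged 0.803 ± 0.668 CPM at t0, against 0.082 ± 0.109 CPM at baseline, Calcr averaged 0.007 ± 0.017 CPM at t0, against 0.036 ± 0.056 CPM at baseline (SD, n = 6 each), and Oscar averaged 0.101 ± 0.112 CPM at t0, against 0.076 ± 0.079 CPM at baseline. The list summed to 100.1 to 372.5 CPM at t0, against 30.9 to 68.9 CPM at baseline. The part of either cell type in the Atp6v0d2 rise was not tested.

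Atp6v1g3, the G form of the V1 stator found in kidney, lies at chr1:138273738-138289462 on the plus strand. Over the libraries of a group its counts summed to 2 (baseline), 0 (t0), 4 (t2), 6 (t4) and 1 (t6), with at most 3 in any library. No count was seen in the 6 libraries of t0, which allows up to 0.0207 CPM over that group, and none in the 6 wild-type libraries. Differences between groups were not detectable at this depth.

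Other genes of the pump were read from lists of its subunits. Of 13 V1 genes 11 were tested, and 3 rose and 2 fell at t0, with a median log2 change of 0.08, against 0.02 over all genes. These 5 of 11 are close to the 45.5% of all genes called at t0 (23.3% higher and 22.3% lower). The 2 that fell were Atp6v1c2 and Atp6v1b1, which encodes the B1 form of the nucleotide-binding subunit used in acid-secreting cells. Atp6v1b1 measured 7.84, 10.3 and 13.4 CPM at t0 (lowest, median, highest), against 135.3, 152.9 and 190.1 CPM at baseline. It fell by 3.90 on the log2 scale (SE 0.32, adjusted p = 6.6e-10). Unlike Atp6v1c2, it also passed in all later groups against baseline, falling by 1.25 at t2, 1.87 at t4 and 1.84 at t6 (adjusted p = 0.00503, 7.95e-05 and 0.000308); the difference between both genes was not tested. Its means were 65.5 ± 29.1, 42.7 ± 16.2 and 43.6 ± 21.8 CPM at t2, t4 and t6 (SD, n = 5, 6 and 5), against 156 ± 20.3 CPM at baseline (n = 6).

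The V1 genes that rose at t0 were Atp6v1c1, the widely used C form, by 0.67 (SE 0.15, adjusted p = 0.000763), Atp6v1f, a part of the central stalk, by 0.59 (SE 0.17, 0.00557), and Atp6v1a, the catalytic subunit, by 0.25 (SE 0.10, 0.031). The Atp6v1a call was lost under 2 of the 12 alternatives and without any 1 of 5 libraries, baseline 344, 352 or 355 or t0 357 or 359 (adjusted p from 0.0527 to 0.0755). Atp6v1b2, the widely used B form, measured 185.1 ± 44.1 CPM at t0, against 164.5 ± 13.3 CPM at baseline (SD, n = 6 each, adjusted p = 0.236).

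Of 13 V0 and accessory genes 12 were tested, and 7 rose and 1 fell at t0, with a median log2 change of 0.54, where 23.3% of all genes rose and 22.3% fell. Besides Atp6v0d2, the rises were Atp6v0a1 by 1.35 (SE 0.17, adjusted p = 4.64e-07) and Tcirg1, the a3 form of lysosomes and osteoclasts, by 0.99 (SE 0.17, 3.87e-05), followed by Atp6v0c, Atp6v0b, Atp6v0e and Atp6v0d1 by 0.80, 0.74, 0.58 and 0.49. Atp6v0c, the proteolipid of the rotor ring, is uncertain, since a pseudogene copy, Atp6v0c-ps2, has its own row in the table. Atp6v0e2 fell by 0.89 (SE 0.22, adjusted p = 0.00173). At t2 against baseline 5 rose and 0 fell, at t4 2 rose and 0 fell, and at t6 1 rose and 0 fell. Over all genes tested, 19.9%, 19.6% and 8.83% were called in these comparisons in either direction.

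Atp6v0a4, the a4 form that acid-secreting cells of the kidney use, took another course. It measured 1.60 ± 0.61 CPM at t0, against 2.80 ± 1.59 CPM at baseline (SD, n = 6 each), which did not pass (adjusted p = 0.182). It averaged 8.96 ± 3.86 CPM at t2, 6.39 ± 4.16 CPM at t4 and 9.19 ± 5.02 CPM at t6 (SD, n = 5, 6 and 5). The rises against baseline were 1.68 at t2 and 1.72 at t6 (adjusted p = 0.0191 and 0.0293), and 1.19 at t4 did not pass (0.0811). The t2 call was lost with only the groups compared (adjusted p = 0.0507), and the t6 call without baseline library 343, 355 or 356 or t6 library 365 or 366 (adjusted p from 0.0563 to 0.0936). Also among later rises, the Atp6v0a1 call at t4 was lost without baseline library 344 or 356 or t4 library 340 or 371 (0.0552 to 0.0796), the Atp6v0c call at t2 without baseline library 343 or 344 or t2 library 334, 358 or 360 (0.0506 to 0.0683) and with only the groups compared (0.0916), and the Atp6v0b call at t2 without t2 library 358 (0.0548).

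**Figure D3:**
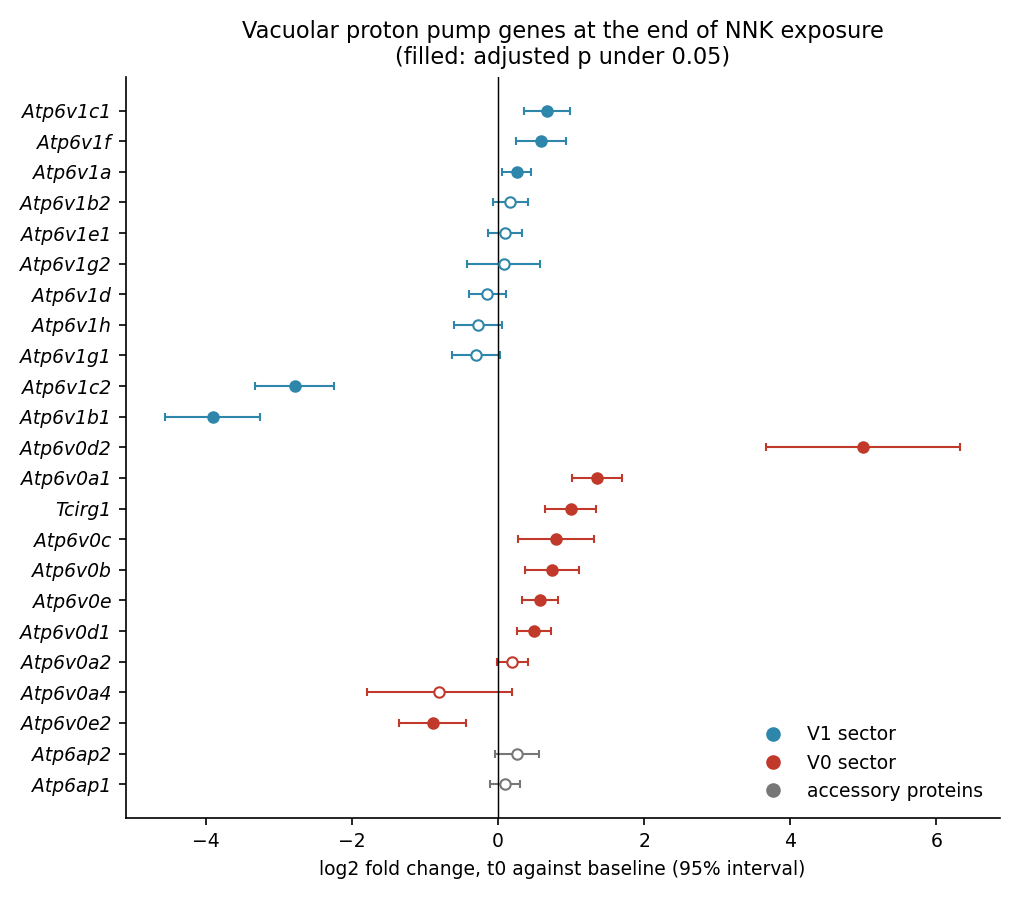
Log2 fold change (x axis) at t0 against baseline for each tested gene of the proton pump, with 95% intervals, V1 genes at the top, V0 genes below them and accessory proteins at the bottom. Filled points passed an adjusted p of 0.05. Atp6v1b1 and Atp6v1c2 are far left of 0, Atp6v0d2 is far right, and the other genes lie within 1.5 log2 units of 0.

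The balance between paired forms was read as a ratio of counts within each library, not scaled for gene length and chosen after values were seen. The ratio of Atp6v1c2 to Atp6v1c1 had a median of 0.268 at t0 (0.114 to 0.618 over libraries), against 3.35 at baseline (2.53 to 4.60). The medians were 2.73, 2.89 and 2.85 at t2, t4 and t6. The ratio of Atp6v1b1 to Atp6v1b2 had a median of 0.0593 at t0 (0.0378 to 0.0851), against 0.956 at baseline (0.756 to 1.10), and 0.331, 0.275 and 0.298 at t2, t4 and t6. The ratio of Atp6v0d2 to Atp6v0d1 had a median of 0.381 at t0 (0.192 to 0.496), against 0.0151 at baseline (0.00404 to 0.0264), and 0.0566, 0.0489 and 0.0437 at t2, t4 and t6. In each pair the t0 libraries lay apart from the baseline libraries, as the first gene of each pair also did by itself. Of all genes tested singly, 13.1% lay apart in the higher and 12.7% in the lower direction. No such share was computed for ratios.

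Genes that help assemble or regulate the pump, all 9 of them tested, were lower or not called at t0: 5 fell and 0 rose, with a median log2 change of -0.57, where 22.3% of all genes fell and 23.3% rose. Oxr1 fell by 0.65 (SE 0.11, adjusted p = 3.83e-05), Vma21, a chaperone of V0 assembly, by 0.87 (SE 0.16, 9.91e-05), and Wdr7, a part of the complex that joins both sectors, by 0.58 (SE 0.13, 0.000619). At t2, t4 and t6 against baseline 3, 2 and 1 of the 9 fell, and Oxr1 was the 1 called at t6, falling by 0.49 (SE 0.12, adjusted p = 0.0088). Among all genes tested, 19.9%, 19.6% and 8.83% were called in these comparisons in either direction. The list had 0 calls at t6, Oxr1 included, with library totals in place of TMM or without the 5 libraries left out together.

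Genes of ionocytes beyond the 7, a list of 16 with 12 tested, gave 3 calls at t0: 2 rose and 1 fell, with a median log2 change of -0.19. Of all genes tested, 45.5% were called at t0 (23.3% higher and 22.3% lower), a larger share than in this list. P2ry14, a receptor for UDP-sugars, measured 6.47, 8.11 and 14.6 CPM at t0 (lowest, median, highest), against 1.90, 3.50 and 5.09 CPM at baseline, and rose by 1.35 (SE 0.47, adjusted p = 0.0198). Igf1, a growth factor that fibroblasts and macrophages also make, rose by 2.55 (SE 0.59, adjusted p = 0.000941). Of 8 fibroblast markers 0 passed at t0, and 0 had an unadjusted p under 0.05 by edgeR. Of 14 macrophage markers 12 rose and 1 fell. The part of either cell type in the Igf1 rise was not tested. Asgr1, a lectin receptor best known from liver, fell by 2.22 (SE 0.51, adjusted p = 0.000914), with 1.11 to 4.28 CPM at t0, against 7.79 to 27.5 CPM at baseline. Against baseline, 0 rose and 1 fell at t2, 0 rose and 2 fell at t4, and 0 passed at t6 by edgeR, limma or DESeq2 (1 at an unadjusted p under 0.05, by edgeR). The shares of all genes called by edgeR were 19.9% at t2, 19.6% at t4 and 8.83% at t6. The gene called at t2 was again Asgr1, and those at t4 were Tfcp2l1 and Dmrt2, named after their values were seen. The relatives Foxi2 and Foxi3 were too low to test.

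Library 339 of t2 was the lowest of the 28 libraries for 8 of 13 tested ionocyte markers (61.5%), against 24.2% of all genes tested. The latter share covers genes of every level, and the shares were not matched for level. Library 339 held 0 counts of Foxi1, Stap1, Asgr1, Pde1c and Gm933, against 371 of Ascl3. Without this library, the 3 rich in haemoglobin and library 365 of t6, the t2 difference of Foxi1 from baseline was 0.18 and that of Cftr 0.20 on the log2 scale, each on the other side of 0 and not called.

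At t0, 23.3% of all genes tested rose and 22.3% fell. Ion transport genes of other airway cells, 20 with 18 tested, gave 2 rises and 8 falls there (median log2 change -0.21). The rises were in water channels, Aqp5 by 1.79 (SE 0.23, adjusted p = 6.49e-07) and Aqp3 by 1.93 (SE 0.29, 5.18e-06). The falls with the smallest p were Kcnq1, a potassium channel, by 1.01 (SE 0.20, adjusted p = 0.000136), Atp1b1, a subunit of the sodium pump, by 0.58 (SE 0.12, 0.000197), and Clca1, a secreted regulator of chloride channels, by 4.20 (SE 0.83, 0.000226). Of 10 genes that handle acid and base beside FOXI1 in kidney and inner ear, 6 were tested, and Atp6v1b1 alone passed at t0. At t6 against baseline 2 of these 6 rose, Atp6v0a4 and Car12, a carbonic anhydrase that rose by 2.32 (SE 0.62, adjusted p = 0.0173), and Atp6v1b1 fell. In that comparison 8.83% of all genes tested were called in either direction.

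Likeness was measured as Pearson's r of log2(CPM + 1) after subtracting each group's mean, over 28 libraries, and is given as a description, since libraries share depth and cell makeup. For Atp6v0d2 the 3 most alike genes were Mrc1 (r = 0.958), a mannose receptor of macrophages, Siglec1 (0.934), a macrophage lectin, and Lipa (0.921), the lysosomal acid lipase. Mrc1 averaged 73.5 ± 35.4 CPM at t0, against 2.73 ± 1.41 CPM at baseline (SD, n = 6 each). The 3 libraries highest in Atp6v0d2 at t0, 357, 375 and 332, were also highest in Mrc1, and without the 2 libraries farthest from the median r was 0.941.

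For Atp6v1c2 the 3 genes were Scgb1a1 (r = 0.831), the main secretoglobin of club cells, 1700007K13Rik (0.813) and Cyp2s1 (0.806), a cytochrome P450. Scgb1a1 averaged 701 ± 390 CPM at t0, against 32330 ± 6970 CPM at baseline (SD, n = 6 each). Library 368, lowest in Atp6v1c2 at t6, was also lowest in Scgb1a1 at t6, at 7401 CPM. Without libraries 368 of t6 and 332 of t0, r was 0.73.

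For Foxi1 the 3 genes were Coch (r = 0.822), Elac2 (0.805) and Pabpc4 (0.804). Without libraries 339 and 358 of t2 these r were 0.748, 0.651 and 0.645. For Moxd1 the 3 genes were Coch (0.797), Gm933 (0.777) and Dgki (0.773). Coch, which encodes the secreted protein cochlin, thus stood first for both Foxi1 and Moxd1. Coch was low, between 0 and 2.61 CPM. For Cftr they were Rnf130, Galnt4 and Fem1c (0.808, 0.788 and 0.785), and without libraries 339 of t2 and 368 of t6 these fell to between 0.549 and 0.669. For Ascl3 they were Tff1, Rabl6 and Snx21 (0.781, 0.768 and 0.759).

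Among the 6 genes themselves, the highest r were between Foxi1 and Moxd1 (0.588), Foxi1 and Cftr (0.573), Ascl3 and Moxd1 (0.559) and Cftr and Moxd1 (0.494). Without library 339 of t2 the r of Foxi1 and Ascl3 was 0.696, against 0.444 with it, while that of Foxi1 and Cftr was 0.357. Atp6v1c2 and Atp6v0d2 had r of -0.021 and -0.22 with Foxi1, and -0.342 with each other. Their highest r with any other tested gene were 0.831 with Scgb1a1 and 0.958 with Mrc1. Within groups of these brushings, neither pump gene thus rose and fell with Foxi1.

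**Figure D4:**
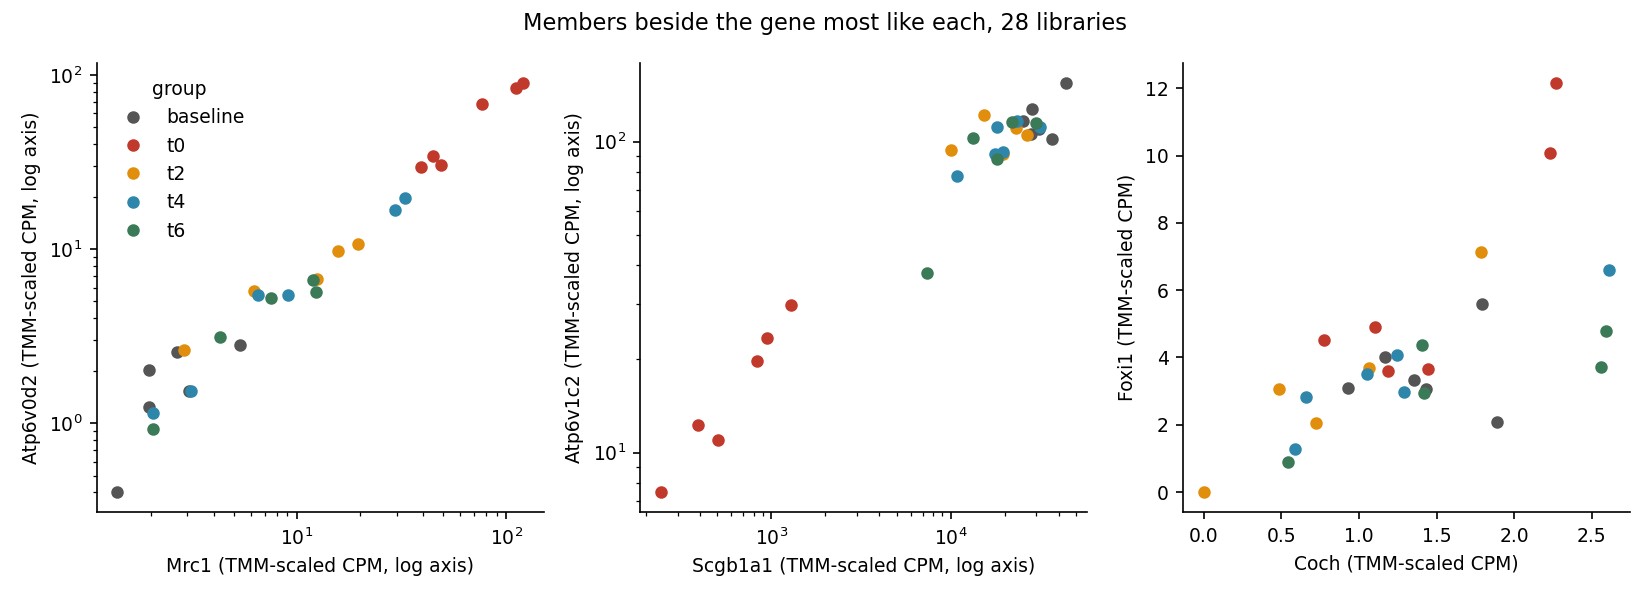
CPM of Atp6v0d2, Atp6v1c2 and Foxi1 (y axes) against that of the gene most like each, Mrc1, Scgb1a1 and Coch (x axes), with 1 point per library coloured by group. The plotted values hold the differences between groups, which were subtracted before r was taken. The first and second panels have log axes and the third linear axes; t0 libraries are at the upper right of the first panel and the lower left of the second, and t2 library 339 is at 0 for both Foxi1 and Coch.

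In wild-type brushings before exposure, where transcripts-per-million values (TPM) allow levels to be compared between genes, Atp6v1c2 was the most abundant of the 7 at 83.7 ± 23.1 TPM (SD, n = 6). Ascl3 followed at 9.93 ± 4.60 TPM, with no overlap between both ranges. Foxi1 at 0.988 ± 0.387, Moxd1 at 0.772 ± 0.490, Atp6v0d2 at 0.408 ± 0.183 and Cftr at 0.317 ± 0.128 TPM came next, and neighbours in this order overlapped. Moxd1 was at 0 counts in wild-type library 295, the shallowest of the 6. Atp6v1b1 stood at 97.9 ± 23.1 TPM and Atp6v1c1 at 15.3 ± 3.66 TPM. Scaled by library totals, wild-type Atp6v1c2 ranged from 62.1 to 160.8 CPM and Cftr from 1.22 to 2.88 CPM; no test was run between genotypes, since the authors made each genotype's tables on their own.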

How the data were processed

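RNA of integrity number 7 or more was made into poly-A libraries and read on an Ion Proton, per the labels' protocols. The knockout table deposited by the authors is named for RPKM but holds estimated counts: 76.3% of its values above 0 are whole within 0.01. The submitters' processing notes name the aligners STAR (2.4.1d) and Bowtie2 (2.1.0), the Partek software and the mm10 build for it; use of strand is not given in the sources used here. The wild-type files deposited by the authors hold expected counts, TPM and FPKM (STAR 2.7.0f, RSEM 1.3.1, GRCm38, per the submitters' processing notes).

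Knockout counts were rounded to whole numbers. Differences were tested in R 4.3.3 with the quasi-likelihood fit of edgeR 4.0.16, robust and two-sided, with TMM scaling and a mean per group over all 28 libraries. The 14847 genes that reached 1 CPM in 5 or more libraries were tested, with Benjamini-Hochberg adjustment over them at 0.05. Each exposed group was set against baseline, each group after t0 was also set against t0, and an F test ran over the 5 groups. Alternatives were limma 3.58.1 on log2(CPM + 1) and log2(CPM + 0.1), DESeq2 1.42.0, other filters and scalings, and libraries left out. In a simulation of all 28 libraries with 14847 genes, 67 genes were changed 1.5-fold, 67 2-fold and 66 4-fold at t0. The test against baseline found 13.4%, 53.7% and 81.8% of them. In the data 45.5% of genes were called at t0, so the adjustment was stricter in the simulation and these percentages need not hold for the data. A count of 0 was read against a floor of 3 counts over the group, which covers counting error only.

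Gene positions are from GENCODE M21. The members, gene lists and markers were chosen with earlier results of these data known. From each list, genes past the threshold with the 3 smallest p-values in each direction at t0 and at t6 against baseline are named, and every pump gene past it in any comparison with baseline; likeness names the 3 genes with the highest r. Some listed genes are not reported here. Per the series design text, every library is a different mouse, and no pair of libraries of the same group agreed within sampling noise.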

Additional observations from a re-analysis of the deposited data

How the results depend on the processing

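For the 6 tested genes, 42 differences were recomputed under 12 alternatives, giving 504 values: 478 kept direction and side of the threshold, 3 lost the call, and 23 changed sign, of which 0 were called in either setting. The calls of Atp6v1c2 and Atp6v0d2 held under all 12 alternatives and in all 28 fits that left out 1 library. The 3 lost calls were those of Cftr: -1.21 at t2 against t0 with only the groups compared, and -1.11 and -1.12 at t4 against t0 with no filter and with limma on log2(CPM + 0.1). The cause was not tested for any change below.

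The sign changes, all near 0 on the log2 scale, were as follows. Without libraries 357 of t0, 339 of t2, 371 of t4 and 349 and 365 of t6, Foxi1 gave 0.18 at t2 and -0.24 at t4 against baseline, Cftr 0.20 at t2 and -0.11 at t4, Ascl3 -0.12 at t0 and Moxd1 0.027 at t6 against t0. Foxi1 at t4 gave -0.00146 with no filter, -0.000378 with filterByExpr, -0.00736 with library totals, -0.023 with the upper quartile, -0.0026 with only the groups compared, and -0.047 and -0.083 with limma (pseudocounts 1 and 0.1). Cftr at t4 gave -0.019 with the upper quartile. With limma, Ascl3 gave -0.036 and -0.055 at t0, -0.064 and -0.11 at t6 against baseline, and -0.027 and -0.055 at t6 against t0 (-0.072 with library totals), and Moxd1 gave 0.00155 and 0.22 at t4.

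Leaving out 1 library moved Foxi1 against baseline from -0.68 to 0.18 at t2, from -0.27 to 0.18 at t4 and from -0.24 to 0.17 at t6. Cftr ranged from 0.97 to 1.25 at t0, -0.32 to 0.20 at t2 and -0.14 to 0.14 at t4 against baseline, and from -1.44 to -0.92 at t2 and -1.26 to -0.996 at t4 against t0. Ascl3 ranged from -0.16 to 0.20 at t0 and -0.24 to 0.33 at t6 against baseline, and from -0.013 to 0.40 at t2 and -0.27 to 0.30 at t6 against t0. Moxd1 ranged from -0.41 to 0.10 at t4 and -0.22 to 0.32 at t6 against baseline, and from -0.53 to 0.024 at t6 against t0.

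Over all genes, 4371 were called at t4 against baseline with only the groups compared (2907 otherwise) and 833 at t6 with library totals (1311 with TMM, 910 to 2052 without 1 library). Library totals moved the median log2 change of all genes to 0.19 at t0 and 0.12 at t2 against baseline, and to -0.17 at t4 and at t6 against t0. Higher and lower calls against baseline then numbered 4331 and 1909 for t0 (3457 and 3304 with TMM), 2048 and 503 for t2 (1657 and 1296), 1509 and 611 for t4 (1488 and 1419), and 600 and 233 for t6 (674 and 637). Against t0 they numbered 1756 and 3019 for t4 (2362 and 2591) and 1937 and 3513 for t6 (2697 and 3047).

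Among ionocyte genes beyond the 7, the 1 call at t2 became 0 with only the groups compared, 2 and 4 with limma and 2 with DESeq2. The 2 calls at t4 became 0 with library totals and 1 with no filter, filterByExpr, RLE, haemoglobin left out, the 5 libraries left out or limma on log2(CPM + 0.1), and t6 gave 1 with only the groups compared. Of V1 genes, t2 gave 2 without the 5 libraries and t4 gave 2 with DESeq2; of V0 genes, t2 gave 3 with only the groups compared. Assembly genes gave 0 at t2 and at t6 and 1 at t4 with library totals, 1 at t4 with no filter, 0 at t6 without the 5 libraries, and 4 at t4 and 2 at t6 with only the groups compared. Acid and base genes gave 2 at t0 with no filter, filterByExpr, library totals or limma. Without 1 library, counts ranged from 1 to 2 (t2) and 0 to 3 (t4) for ionocyte genes, 1 to 2 (t2) for V1, 3 to 6, 1 to 2 and 0 to 1 (t2, t4, t6) for V0, 1 to 3 and 1 to 2 (t4, t6) for assembly, and 1 to 3 (t0) for acid and base genes.

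No paired analysis was possible because the groups share no animal numbers. The 95% intervals at t0 against baseline were wider than 1 log2 unit for all 6 tested genes. The widest was that of Atp6v0d2 (3.66 to 6.32), and the parts of depth and of spread between mice were not tested.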
